A study of Mus musculus with 29 samples.

Results

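The genes described here are 9 genes of B cells and of lymphoid follicles, read from RNA-seq of colon segments in 6 mouse models of colitis and 3 groups of untreated mice. They were chosen by name, as the rows of the count table whose Ensembl identifiers map to Ms4a1, Cd79a, Cd79b, Cr2, Cxcr5, Cxcl13, Ccl19, Ltb and Lta, so 9 of the 54532 genes in the table, and all 9 were among the 18616 genes tested, whose counts averaged at least 3 per library. The series holds 29 libraries in 9 groups, each library from 1 mouse as labelled, and every colitis model was compared with the untreated group that its labels give.

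The untreated Balb/C mice (WT_ctrl, n = 3) were the control for 3 models with an intact lymphocyte compartment. DSS mice (n = 3, Balb/C) drank 3% dextran sodium sulphate for 5 days and were culled on day 10. DNBS mice (n = 3, Balb/C) received 3 mg of dinitrobenzene sulphonic acid into the rectum. IL10 mice (n = 4, Balb/C) are labelled as given an antibody that blocks the IL10 pathway. Their treatment text gives 750 µg of anti-IL-10R and a cull at 4 weeks or earlier if colitis showed, whereas the methods of the study describe mice without the Il10 gene. Untreated Balb/C Rag2-/- mice (Rag2_ctrl, n = 3) were the control for TRUC mice (n = 4), which are untreated Balb/C mice lacking both Tbx21 and Rag2. Untreated C57BL/6 Rag1-/- mice (Rag1_ctrl, n = 3) were the control for the T-cell transfer group (TCT, n = 3, C57BL/6 Rag1-/-), which received 500000 sorted naive CD4+ T cells and was culled after 6 to 8 weeks, and for the anti-CD40 group (aCD40, n = 3, C57BL/6 Rag1-/-), which received 50 µg of a CD40 agonist and was culled after 7 days. Another strain is named for wild-type and DSS animals in the methods of the study, and the treatment text names Rag2-/- recipients for the transfer.

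B cells carry the antigen receptor, a membrane immunoglobulin that signals through the paired chains Cd79a and Cd79b, and they display the surface protein CD20, the product of Ms4a1. Mature B cells are guided into follicles when their receptor Cxcr5 senses the chemokine Cxcl13, which is made by follicular stromal cells, while Ccl19 guides T cells and dendritic cells that carry Ccr7. The colon wall holds small follicles of this kind, the colonic patches and isolated lymphoid follicles. Their formation depends on lymphotoxin, a membrane complex of Lta and Ltb that is made by lymphocytes and innate lymphoid cells and that signals through Ltbr on stroma to NF-kB. Cr2 encodes the complement receptors CR1 and CR2 of mature B cells and of follicular dendritic cells. Mice without Rag1 or Rag2 cannot rearrange antigen receptors and have neither mature B cells nor their own T cells.

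In mouse build GRCm38 the members lie on 8 chromosomes, and only the lymphotoxin genes are neighbours. Lta (chromosome 17, 35203165 to 35205351, minus strand) and Ltb (chromosome 17, 35194439 to 35196320, plus strand) share a locus. Cd79a (chromosome 7, 24897381 to 24902197, plus strand) and Cd79b (chromosome 11, 106311341 to 106314762, minus strand) are unlinked, as are Ms4a1 (chromosome 19, 11249675 to 11266241, minus strand) and Cr2 (chromosome 1, 195136811 to 195176716, minus strand). Cxcr5 spans chromosome 9, 44511787 to 44561877, minus strand, Cxcl13 chromosome 5, 95956951 to 95961068, plus strand, and Ccl19 chromosome 4, 42754525 to 42756577, minus strand. Sequence sharing limits the Ccl19 counts, because 52% of the 50-base windows of its transcripts also occur in other annotated genes (Ccl19-ps1, Ccl19-ps3, Gm12407 and Gm2564), so its reads may be split or dropped. The share was 8.31% for Cd79a, 1.86% for Cxcr5, 1.21% for Ms4a1 and 0% for the other 5 members. A stretch of 110 exon bases of Cxcr5 (3.3%) overlaps Bcl9l on the opposite strand, and reads there cannot be assigned without strand.

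The RefSeq promoter table held 6 of the 9 members. Upstream sequence is shown for 3 of them, on the plus strand, to set beside the results the 2 genes that changed most widely, Cxcl13 and Ltb, and the B-cell receptor gene Cd79a. Capitals mark matches on either strand to the octamer ATGCAAAT, the kappaB-type motif GGACTTTCC or the TATA box TATAAA, motifs that do not overlap in these stretches. The stretches are chr5:95956689-95956938, chr17:35194257-35194438 and chr7:24897247-24897380, build GRCm38.p6. Each was ended before the earlier of the RefSeq and Ensembl starts, so the Ltb stretch stops 68 bases and the Cd79a stretch 116 bases short of the RefSeq start, from which positions are counted.
Cxcl13: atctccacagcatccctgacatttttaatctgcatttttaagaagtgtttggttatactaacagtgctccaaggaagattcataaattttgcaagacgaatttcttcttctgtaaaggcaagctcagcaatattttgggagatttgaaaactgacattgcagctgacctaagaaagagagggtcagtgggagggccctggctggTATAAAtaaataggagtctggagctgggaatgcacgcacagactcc
Ltb: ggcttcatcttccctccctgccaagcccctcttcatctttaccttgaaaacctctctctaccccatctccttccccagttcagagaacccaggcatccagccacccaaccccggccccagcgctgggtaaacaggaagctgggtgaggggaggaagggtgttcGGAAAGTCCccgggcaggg
Cd79a: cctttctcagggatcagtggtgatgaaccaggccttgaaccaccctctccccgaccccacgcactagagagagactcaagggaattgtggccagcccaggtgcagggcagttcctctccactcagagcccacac
The Cxcl13 stretch holds TATAAA from base -46 to -41 counted from the RefSeq start, a match that 12.4% of the 32851 promoters in the table have in a window of the same length. The Ltb stretch holds GGACTTTCC on the minus strand, from base -87 to -79, which 0.195% of promoters have in a window of that length. No match to the 3 motifs was found in the 134 bases shown for Cd79a. These matches are descriptions of letters in a window and say nothing of binding.

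Library totals ranged from 10725564 to 14977094 counts (median 12287039). Values are given as CPM, the counts of a gene relative to the total of its library after TMM scaling, which sets libraries on a common footing, so that 3 counts, the floor used here for a gene seen in a library, correspond to about 0.228 CPM in WT_ctrl 1. DSS 8 and IL10 4 stood apart from the rest of their own group in the correlation of log2 CPM over genes (0.958 and 0.961), against at least 0.977 for the others, and the counts of members and of the main gene lists in DSS and IL10 are given with and without them. The labelled genotypes were checked on transcripts of the targeted genes. Libraries labelled Rag1_ctrl held 6 to 20 counts of Rag2 and 0 to 4 of Rag1, and those labelled aCD40 held 48 to 99 of Rag2 and 0 to 2 of Rag1, a pattern shared with Rag2_ctrl (15 to 25 of Rag2, 0 to 2 of Rag1) and TRUC (57 to 94 of Rag2, 0 to 3 of Rag1). Libraries labelled TCT showed the opposite, with 20 to 33 counts of Rag1 and 0 of Rag2 in all 3 mice. TCT and its labelled control therefore differ at these genes, and this cannot be told apart from the transfer. Tbx21 had 26 to 52 counts in TRUC against 1 to 7 in Rag2_ctrl, and Il10 had 61 to 111 counts in IL10 against 1 to 4 in WT_ctrl. Counts from outside a deleted part would check nothing, and which exons were read was not examined. Colon markers were abundant in all 29 libraries, with the summed level of 8 epithelial markers between 6836 and 24167 CPM.

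The untreated groups set mice with lymphocytes beside mice without. In untreated Balb/C mice 7 of the 9 members were higher than in Rag2_ctrl and none was lower, against 4.86% of all tested genes higher and 3.25% lower. Of these 7, the 5 B-cell members had the largest differences. Cd79a stood at 25.7, 24.8 and 39.8 CPM in the 3 WT_ctrl mice and at 0.354, 0.153 and 0 CPM in the 3 Rag2_ctrl mice. The groups did not overlap, and the log2 difference was 7.46 ± 0.84 (SE; edgeR adjusted p = 7.23e-07). The log2 difference was 6.62 ± 0.92 for Cxcr5 and 6.49 ± 0.92 for Cr2. For Cd79b it was 6.03 ± 0.75, and for Ms4a1, which kept 8 counts in each Rag2_ctrl library, 4.37 ± 0.65. In colon segments, fewer cells of a type and less RNA per cell cannot be told apart.

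Lymphotoxin genes showed smaller differences, and Cxcl13 did not pass the test. Ltb was at 7.39, 9.45 and 13.9 CPM in WT_ctrl and at 3.1, 2.98 and 5.74 CPM in Rag2_ctrl, a log2 difference of 1.37 ± 0.41 (edgeR adjusted p = 0.0383). Lta had only 2 to 3 counts in Rag2_ctrl and 10 to 13 in WT_ctrl, with a log2 difference of 1.94 ± 0.57 (edgeR adjusted p = 0.0346). Both calls are fragile: leaving out single mice took the adjusted p above 0.05 for Lta in all 6 cases and for Ltb in 4 of 6. For Lta the call was also lost in DESeq2 (adjusted p = 0.0617) and with Rag1_ctrl in place of Rag2_ctrl (log2 difference 0.89, edgeR adjusted p = 0.304). Rag1_ctrl is labelled C57BL/6 and WT_ctrl Balb/C, so strain changes too in that last comparison. Cxcl13 was at 9.98, 11.2 and 13 CPM in WT_ctrl against 4.78, 6.12 and 7.55 CPM in Rag2_ctrl. The mice did not overlap, but the log2 difference of 0.88 ± 0.42 missed the threshold (edgeR adjusted p = 0.235), whereas it passed in DESeq2 on the 2 groups (adjusted p = 0.000554). Ccl19 had 16 counts in WT_ctrl 1 and 0 in the other 2 mice and in Rag2_ctrl.

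Among 16 other B-cell genes, 14 were higher in WT_ctrl than in Rag2_ctrl and 1, the signalling adaptor Blnk, was lower (log2 difference -0.52). Their median log2 difference was 4.69, against -0.01 over all genes. Residual counts in the Rag-deficient groups were small but not evenly spread. Cd79a had at most 4 counts in any of the 16 libraries of the 5 Rag-deficient groups, whereas Cd79b reached 30 counts in TCT 1. Cd3e, a chain of the T-cell receptor complex, had 5 to 16 counts in WT_ctrl, 13 to 32 in DSS, 3 to 18 in DNBS, 39 to 100 in IL10 and 61 to 119 in TCT, and 0 to 2 in the other groups.

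**Figure D1:**
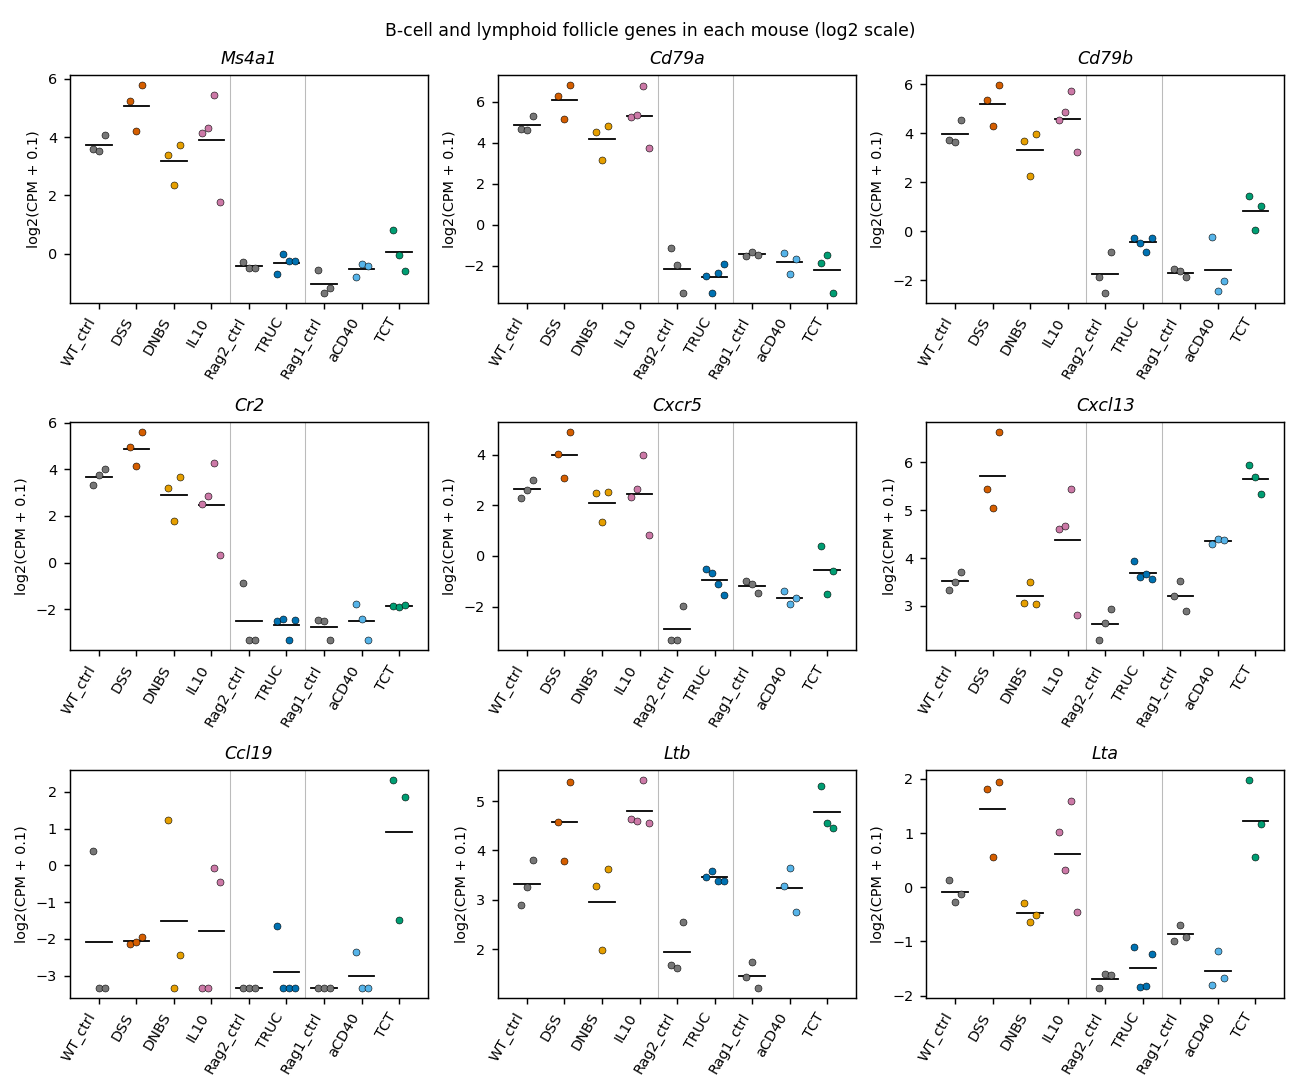
Level of each of the 9 genes in each mouse as log2(CPM + 0.1), with points for mice and bars for the mean of the log values, and vertical lines between the Balb/C, Rag2-/- and Rag1-/- labelled sets. Ms4a1, Cd79a, Cd79b, Cr2 and Cxcr5 separate the 4 groups with B cells from the 5 Rag-deficient groups, whereas Cxcl13 and Ltb reach in TCT the range of DSS.

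Per kilobase of exon the members differ widely in level. In WT_ctrl the mean was 20.6 CPM per kb for Cd79a and 11.4 for Cd79b, 9.91 for Cxcl13, 6.75 for Ltb and 2.17 for Ms4a1. Cxcr5 (1.86 CPM per kb), Cr2 (1.6), Lta (0.613) and Ccl19 (0.468) were lower. In DSS mice Cxcl13, at 50.8 CPM per kb, came close to Cd79a at 52. In TCT Cxcl13 (44.4) and Ltb (18.6) stood far above the B-cell member with most reads per kb, Cd79b at 1.28.

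Among the models with B cells, DSS colitis raised most of the members. In DSS 7 of 9 rose against WT_ctrl and none fell, with a median log2 fold change of 1.37 over the 9 (0.02 over all genes), against 17.7% of all genes higher and 16.3% lower. The follicular chemokine changed most. Cxcl13 stood at 43.6, 33.1 and 98.6 CPM in the 3 DSS mice, all above the WT_ctrl mice. Its log2 fold change was 2.36 ± 0.41, a 5.12-fold rise (edgeR adjusted p = 0.000135).

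The B-cell members rose together, by less. Ms4a1 was at 37.4, 18.6 and 55.5 CPM in DSS 5, 6 and 8 against 12, 11.4 and 16.8 CPM in WT_ctrl 1, 2 and 4. Its groups did not overlap (log2 fold change 1.47 ± 0.50, edgeR adjusted p = 0.0257). Cd79a was at 77.7, 35.6 and 114 CPM, where the lowest DSS mouse lay below the highest WT_ctrl mouse (log2 fold change 1.33 ± 0.50, edgeR adjusted p = 0.0409). Cd79b behaved likewise, with 41, 19.7 and 62.7 CPM against 13.1, 12.5 and 23.2 CPM (log2 fold change 1.34 ± 0.49, edgeR adjusted p = 0.0374). Cxcr5 was at 16.3, 8.4 and 29.2 CPM against 4.72, 5.99 and 7.87 CPM, without overlap (log2 fold change 1.53 ± 0.52, edgeR adjusted p = 0.0265). Cr2 was at 30.7, 17.5 and 47.5 CPM against 9.82, 13.2 and 15.9 CPM. All DSS mice were above all WT_ctrl mice, but the log2 fold change of 1.30 ± 0.57 missed the threshold (edgeR adjusted p = 0.0826). Cr2 did pass in edgeR on the 2 groups alone (adjusted p = 0.0459) and in DESeq2 (adjusted p = 0.00549). In every B-cell member DSS 8 was the highest mouse and DSS 6 the lowest.

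Both lymphotoxin genes rose in DSS. Lta, the soluble subunit, was at 3.4, 1.37 and 3.76 CPM against 0.99, 0.732 and 0.82 CPM, without overlap (log2 fold change 1.73 ± 0.43, edgeR adjusted p = 0.00319). Ltb, the membrane anchor, was at 23.7, 13.7 and 42 CPM, where DSS 6 lay just below the highest WT_ctrl mouse (log2 fold change 1.37 ± 0.38, edgeR adjusted p = 0.00815). Ccl19 had 2 counts in each DSS mouse, below the floor. Without DSS 8, the library that stood apart, only Cxcl13 and Lta passed, against 10.4% of all genes higher. The log2 fold changes of the 5 B-cell members then fell to between 0.90 and 1.06. Leaving out WT_ctrl 1 or WT_ctrl 2 left 3 members, Cxcl13, Ltb and Lta. In edgeR on the 2 groups alone Cd79a, Cd79b and Ltb missed the threshold (adjusted p = 0.0579, 0.0664 and 0.0585).

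Beside the members in DSS, 8 of 16 other B-cell genes rose and none fell, among them Vpreb3 (log2 fold change 1.69 ± 0.59), the inhibitory receptor Cd22 (1.63 ± 0.52) and the adaptor Bank1 (1.62 ± 0.56). Genes of homing and follicle stroma moved more broadly, with 10 of 14 higher. These were led by Ccl21a, a ligand of Ccr7 (log2 fold change 3.82 ± 1.07), by Ccr7 itself (2.83 ± 0.65) and by the adhesion molecule Vcam1 (2.47 ± 0.25). Germinal centre genes did not follow, with 1 of 6 tested higher (Bcl6, 1.42 ± 0.30). The list of 8 plasma cell genes split. Prdm1 rose (2.52 ± 0.39), Xbp1 rose, and Tnfrsf17 and Jchain, the joining chain of secreted IgA and IgM, fell by 1.96 and 1.06 on the log2 scale. Several of these calls rested on DSS 8. Ccl21a was at 0.566, 0.205 and 3.92 CPM in DSS 5, 6 and 8 against 0 to 0.2 CPM in WT_ctrl. Without DSS 8, 2 of 16 other B-cell genes and 9 of 14 homing and stroma genes were higher, against 10.4% of all genes. Vpreb3, Cd22 and Bank1 then had log2 fold changes of 1.38, 1.26 and 1.24 and Ccl21a of 1.89, none past the threshold (edgeR adjusted p = 0.131, 0.1, 0.139 and 0.215). Ccr7 (1.88), Vcam1 (2.08), Bcl6 (0.90), Prdm1 (1.62) and Xbp1 (0.58) still rose, and neither Tnfrsf17 nor Jchain passed (edgeR adjusted p = 0.139 and 0.0564). Markers of other cells moved too. In DSS 7 of 10 T-cell markers were higher, with a summed level of 48.1 to 90.5 CPM against 17.5 to 34.2 CPM in WT_ctrl, and 5 of 6 dendritic and myeloid markers were higher, with sums of 219 to 490 CPM against 89.4 to 119 CPM. Without DSS 8 these counts were 1 of 10 and 4 of 6. Their part in the changes of the members was not tested.

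DNBS colitis gave no change that passed among the members. By edgeR none of the 9 was called, none had an unadjusted p under 0.05 and DESeq2 called none of the 8 to which it gave an adjusted p, against 3.95% of all genes higher and 2.21% lower (edgeR adjusted p from 0.499 to 0.725 over the 9). The log2 fold changes lay between -0.64 (Cr2) and -0.25 (Ltb) for 8 members, with standard errors of 0.39 to 0.58, and that of Ccl19 was 1.06 ± 1.29. DNBS 14 was the lowest of its group for each of the 5 B-cell members and for Ltb. Its Cd79a level was 8.83 CPM, against 23.3 and 28.5 CPM in the other mice. Cxcl13, at 8.29, 11.2 and 8.18 CPM, overlapped WT_ctrl. Lta was below WT_ctrl in all 3 mice (0.716, 0.542 and 0.597 CPM), at 7 to 12 counts. Ccl19 had 38 counts in DNBS 11, 0 in DNBS 14 and 1 in DNBS 16, so that 1 mouse carries its mean. No other B-cell gene, germinal centre gene or T-cell marker was called. Jchain fell by 1.73 on the log2 scale.

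In the IL10 group the lymphotoxin chain and the chemokine rose, while the B-cell members were spread too widely to be called. Here 2 of 9 members passed, both higher. As a count this is not above the share of all genes, of which 27.2% were higher and 26.1% lower. Ltb was at 24.8, 24.2, 42.9 and 23.5 CPM in IL10 1 to 4, all above WT_ctrl (log2 fold change 1.50 ± 0.37, edgeR adjusted p = 0.00171). Cxcl13 was at 24.3, 25.2, 43.5 and 6.9 CPM. IL10 1 to 3 lay above and IL10 4 below all WT_ctrl mice (log2 fold change 1.14 ± 0.38, edgeR adjusted p = 0.0148). The Cxcl13 call was lost in edgeR on the 2 groups alone (adjusted p = 0.0862) and without WT_ctrl 1 or IL10 3 (edgeR adjusted p = 0.0594 and 0.094). Lta, at 1.94, 1.14, 2.92 and 0.627 CPM, had a log2 fold change of 0.98 ± 0.42 (edgeR adjusted p = 0.0527).

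The B-cell members in IL10 mice followed the same order in each gene, with IL10 3 highest and IL10 4 lowest. IL10 4 also had the highest sum of colon epithelium markers in its group, 24167 CPM against 13167 to 16257 CPM. Its sum of small intestine markers was 52.9 CPM against 7.8 to 26 CPM in the other IL10 mice. The part of these differences in its B-cell values was not tested. Cd79a was at 38.3, 41.2, 110 and 13.5 CPM, from below to well above the WT_ctrl range (log2 fold change 0.76 ± 0.47, edgeR adjusted p = 0.176). Ms4a1 was at 17.4, 19.8, 43.5 and 3.34 CPM (0.65 ± 0.47), and Cxcr5 at 4.97, 6.13, 15.6 and 1.67 CPM (0.21 ± 0.49). Cd79b was at 22.9, 28.8, 53.2 and 9.4 CPM (0.82 ± 0.46). Ccl19 had 0, 0, 10 and 6 counts against 16, 0 and 0 in WT_ctrl. Without IL10 4, the library that stood apart, 6 members passed, all higher: Ms4a1, Cd79a, Cd79b, Cxcl13, Ltb and Lta. In that fit 25.2% of all genes were higher. Ltb was the only member called without IL10 3 in the upward direction, and Cr2 was then lower (log2 fold change -1.48, edgeR adjusted p = 0.0208).

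Cr2 stood apart from the other B-cell members in this group. It was at 5.56, 7.17, 19.1 and 1.15 CPM, below WT_ctrl in 3 of 4 mice, while Ms4a1 was above it in 3 of 4 (log2 fold change of Cr2 -0.64 ± 0.54, edgeR adjusted p = 0.326). Counts of Cr2 per count of Ms4a1 within the same library do not depend on library scaling. This measure was chosen after the values were seen. In WT_ctrl there were 0.816, 1.16 and 0.946 Cr2 counts per Ms4a1 count, in DSS 0.822, 0.941 and 0.857, and in DNBS 0.862, 0.662 and 0.955. In the IL10 mice there were 0.32, 0.361, 0.44 and 0.344. All 4 IL10 mice were below all 9 mice of the other groups, IL10 3 and IL10 4 included, although their Ms4a1 levels differed widely. The difference in mean log2 ratio from WT_ctrl was -1.41, with SDs between mice of 0.20 (n = 4) and 0.25 (n = 3). A two-sided exact permutation test gave p = 0.0571, the smallest that 4 against 3 mice allow, and 0.428 after Benjamini-Hochberg adjustment over the 15 ratio tests computed. Per count of Cd79a the difference was -1.64, also without overlap (exact permutation p = 0.0571). For Cxcr5 per Ms4a1 it was -0.37 with overlap (exact permutation p = 0.171), so this difference was not resolved. In DSS and DNBS the ratio of Cr2 to Ms4a1 differed from WT_ctrl by -0.14 and -0.24, with overlap (exact permutation p = 0.6 and 0.5, where 3 against 3 mice cannot go below 0.1). The SDs between mice were 0.10 in DSS, 0.27 in DNBS and 0.25 in WT_ctrl.

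**Figure D2:**
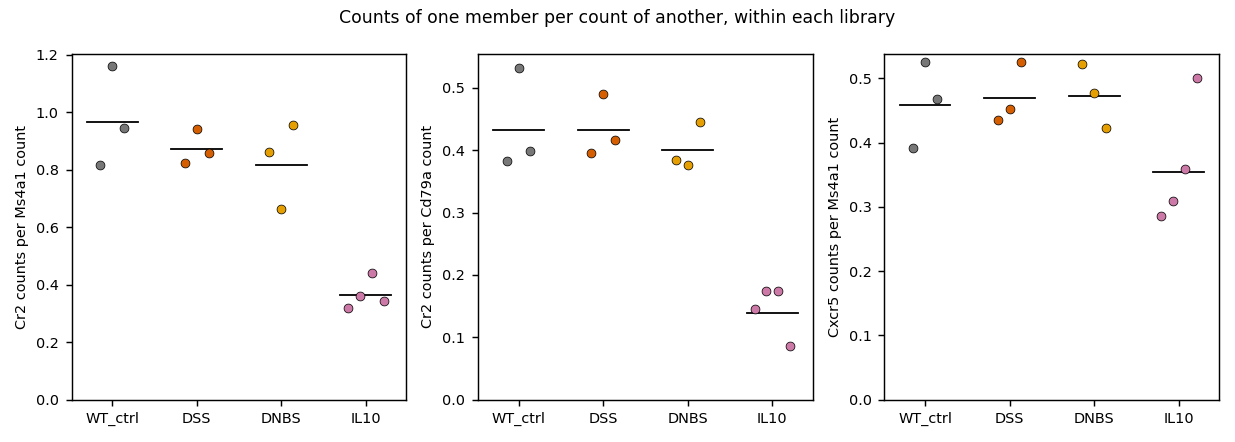
Counts of Cr2 per count of Ms4a1, of Cr2 per count of Cd79a and of Cxcr5 per count of Ms4a1 in each library of the 4 groups with B cells, with points for mice and bars for the geometric mean. The 4 IL10 mice lie at 0.32 to 0.44 Cr2 counts per Ms4a1 count and the other 9 mice at 0.662 to 1.16.

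Genes of plasma cells and germinal centres rose in the IL10 group. All 8 plasma cell genes were higher than in WT_ctrl, with a median log2 fold change of 3.01 (-0.01 over all genes). They were led by Mzb1, a chaperone of antibody-secreting cells (3.59 ± 0.44), Derl3 (3.35 ± 0.42) and Jchain (3.34 ± 0.41). Jchain was at 1675, 1734, 1802 and 1182 CPM in the IL10 mice against 64.4, 99.7 and 309.6 CPM in WT_ctrl. IL10 4, lowest for each B-cell member, was thus above every WT_ctrl mouse for Jchain. Among germinal centre genes 4 of 6 tested were higher. Mef2b rose by 3.37 ± 0.77 and Gcsam by 1.43 ± 0.43 on the log2 scale. Of 16 other B-cell genes only Pou2af1 (1.89 ± 0.45), Vpreb3 (1.45 ± 0.57) and Blnk (0.96 ± 0.14) rose. Without IL10 4 the counts were 8 of 8 plasma cell genes, 4 of 6 germinal centre genes and 6 of 16 other B-cell genes, against 25.2% of all genes higher. All 10 T-cell markers rose as well, with sums of 113 to 200 CPM against 17.5 to 34.2 CPM, and 5 of 6 muscle markers fell, with sums of 2627 to 4952 CPM against 6484 to 8056 CPM. The part of these shifts in the results of the members was not tested.

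**Figure D3:**
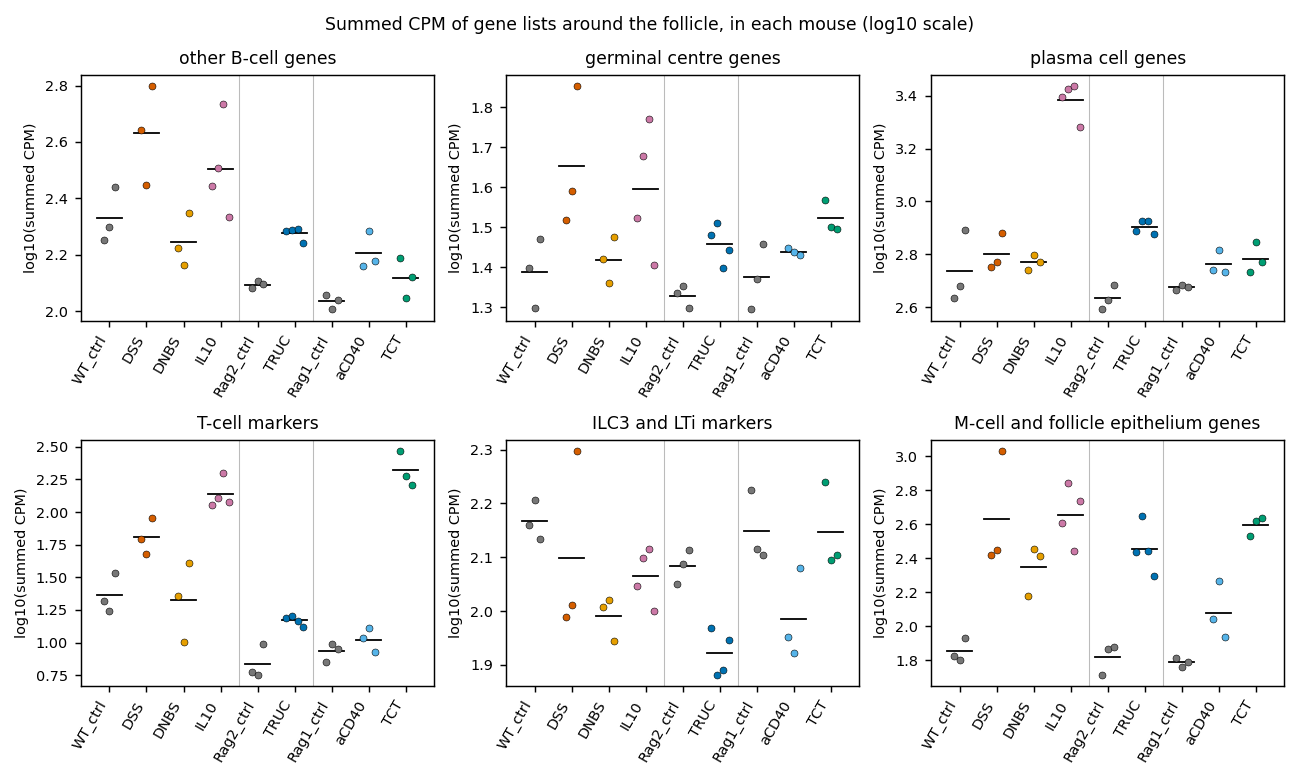
Summed CPM of 6 gene lists in each mouse on a log10 scale, with points for mice and bars for the mean of the log values. The plasma cell sum of the 4 IL10 mice, 1919 to 2738 CPM, lies above all other mice, while the sum of other B-cell genes is highest in DSS 8 and IL10 3.

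In the models without their own B cells, Cxcl13, Ccl19, Ltb and Lta were read with B-cell transcripts near the floor. Which cells made them was not tested. In TRUC mice 2 of 9 members rose, a count near the share of all genes, of which 22.4% were higher and 23.4% lower. Ltb was at 10.9, 11.9, 10.3 and 10.3 CPM in TRUC 2 to 5 against 3.1, 2.98 and 5.74 CPM in Rag2_ctrl, without overlap (log2 fold change 1.46 ± 0.39, edgeR adjusted p = 0.00425). Cxcl13 was at 15.2, 12.1, 12.6 and 11.6 CPM against 4.78, 6.12 and 7.55 CPM, also without overlap (log2 fold change 1.06 ± 0.40, edgeR adjusted p = 0.0311). The Cxcl13 call was lost in 3 of the 7 fits that left out 1 mouse, those without Rag2_ctrl 1, Rag2_ctrl 2 or TRUC 2. Cxcr5 had 3 to 8 counts in TRUC and 0 to 2 in Rag2_ctrl (log2 fold change 2.82 ± 1.20, edgeR adjusted p = 0.0574). At these low counts it passed in edgeR on the 2 groups alone (adjusted p = 0.0121) and in DESeq2 (adjusted p = 0.0372). Cd79b had 10, 7, 5 and 9 counts in TRUC 2 to 5 against 2, 1 and 6 in Rag2_ctrl. Its CPM did not overlap, with 0.458 the lowest in TRUC and 0.453 the highest in Rag2_ctrl, and the log2 fold change of 1.39 ± 0.94 missed the threshold (edgeR adjusted p = 0.234) but passed in edgeR on the 2 groups alone (adjusted p = 0.0394). Ms4a1 had 7 to 10 counts against 8 in each control (0.15 ± 0.76). Cd79a had 0 to 2 counts, Cr2 0 to 1 and Lta 2 to 5, and Ccl19 had 3 counts in TRUC 2 and 0 elsewhere, all at or near the floor.

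Among the other lists in TRUC, 6 of 16 B-cell genes rose. Those with the largest changes were Fcrla (2.59 ± 0.92), the Toll-like receptor homologue Cd180 (2.42 ± 0.55) and Cd72 (2.08 ± 0.37). Cd180 and Cd72 are also known from macrophages and dendritic cells, and 4 of 6 dendritic and myeloid markers rose (sums of 111 to 156 CPM against 49 to 78.5 CPM). Of 10 T-cell markers 4 rose, with sums of 13.2 to 16.1 CPM against 5.66 to 9.66 CPM, and Cd3e had 0 to 2 counts. Of 8 markers of group 3 innate lymphoid cells and lymphoid tissue inducer cells, Il22 (5.08 ± 1.79) and Ncr1 (2.02 ± 0.55) rose and Kit (-1.64 ± 0.25) and Id2 fell. Their part in the rise of Ltb was not tested.

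In anti-CD40 colitis the same 2 members passed, against 10.9% of all genes higher and 10.7% lower. Ltb was at 9.67, 12.4 and 6.67 CPM in aCD40 6 to 8 against 2.59, 3.24 and 2.24 CPM in Rag1_ctrl, without overlap (log2 fold change 1.82 ± 0.43, edgeR adjusted p = 0.00435). Cxcl13 was at 19.5, 21.1 and 20.7 CPM against 9.07, 11.4 and 7.31 CPM (log2 fold change 1.14 ± 0.40, edgeR adjusted p = 0.0459). Its groups did not overlap either, but the edgeR adjusted p rose above 0.05 in each fit that left out any 1 of the 6 mice (0.0675 to 0.146). Lta, with 2 to 4 counts against 5 to 7, was lower in value (log2 fold change -0.84 ± 0.61, edgeR adjusted p = 0.348). The B-cell members were near the floor, with 5 to 9 counts of Ms4a1 against 4 to 7, 1 to 3 of Cd79a against 3 to 4, 1 to 8 of Cd79b against 2 to 3, 2 to 3 of Cxcr5 against 3 to 5 and at most 2 of Cr2 in either group. Ccl19 had 1 count in aCD40 6 and 0 in the other 5 mice. Cd40, the target of the agonist, rose by 2.55 ± 0.62 on the log2 scale. No T-cell marker passed, with sums of 8.46 to 12.9 CPM against 7.13 to 9.79 CPM.

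Among the 6 models, TCT against Rag1_ctrl gave the largest log2 fold change of Ltb and the only call of Ccl19. These 2 groups also differ in Rag1 and Rag2 transcripts, as given above, which cannot be told apart from the transfer. The sum of small intestine markers was 24 to 39.4 CPM in TCT and 4.71 to 6.56 CPM in Rag1_ctrl, and its part was not tested. In TCT 5 of 9 members rose, against 16.1% of all genes higher and 14% lower. Ltb was at 39.4, 23.5 and 21.8 CPM in TCT 1, 3 and 5, a 10.4-fold rise over Rag1_ctrl (log2 fold change 3.38 ± 0.43, edgeR adjusted p = 2.16e-06). Cxcl13 was at 61.2, 51.5 and 40.4 CPM, a 5.49-fold rise (log2 fold change 2.46 ± 0.41, edgeR adjusted p = 6.84e-05). Lta was at 3.84, 1.37 and 2.13 CPM against 0.405, 0.515 and 0.43 CPM (log2 fold change 2.41 ± 0.47, edgeR adjusted p = 0.00041). None of these 3 overlapped, and each passed in every fit that left out 1 mouse. Ccl19 had 56, 3 and 38 counts in TCT and 0 in all 3 Rag1_ctrl mice. Set against a floor of 3 counts in each library this is at least 12.0-fold higher (edgeR adjusted p = 0.00814), with the reservation on shared sequence above, and TCT 3 was itself at the floor.

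Cd79b rose in TCT, whereas its partner Cd79a was not called. Cd79b had 30, 11 and 21 counts (2.62, 0.94 and 1.94 CPM) against 2 to 3 counts in Rag1_ctrl, an 8.25-fold difference (log2 fold change 3.05 ± 0.88, edgeR adjusted p = 0.0103). Cd79a had 2, 3 and 0 counts in the same libraries, and Cr2 had 2 in each. Ms4a1 had 19, 10 and 6 counts against 4 to 7 (log2 fold change 1.34 ± 0.83) and Cxcr5 14, 3 and 6 against 3 to 5 (0.95 ± 0.84), and neither passed. Against Rag2_ctrl, which is of another labelled strain and near 0 for this gene, Cxcr5 passed (log2 fold change 3.45, edgeR adjusted p = 0.0274). Other B-cell genes that rose were Cd22 (3.84 ± 0.77), Cd180 (3.57 ± 0.56), Cd37 (2.77 ± 0.43) and Cd72, 4 of 16 in all. Cd37, a tetraspanin, is known from leukocytes other than B cells, as Cd180 and Cd72 are. All 10 T-cell markers rose, with sums of 163 to 294 CPM against 7.13 to 9.79 CPM, as did 4 of 6 dendritic and myeloid markers, with sums of 238 to 354 CPM against 45.1 to 58.7 CPM. The part of these other cells in the counts of Cd79b was not tested. Set against WT_ctrl in place of Rag1_ctrl, TCT was lower for all 5 B-cell members (log2 fold change -7.58 for Cd79a, -6.12 for Cr2, -3.69 for Ms4a1, -3.17 for Cxcr5 and -3.14 for Cd79b) and higher for Cxcl13, Ltb and Lta. These 2 groups differ in labelled strain and genotype as well as in the transfer, which cannot be told apart.

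**Figure D4:**
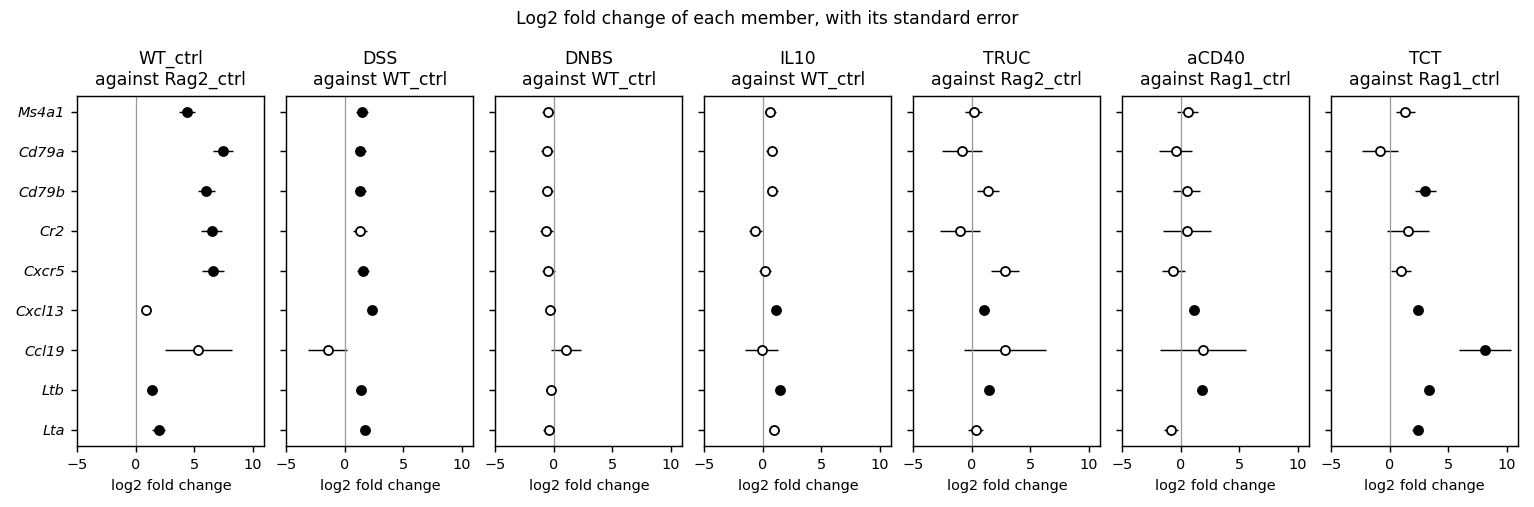
Log2 fold change of each member with its standard error in 7 comparisons, where filled points have an edgeR adjusted p under 0.05 and open points do not. Cxcl13 and Ltb are filled in 5 of the 6 models, DNBS being the exception, whereas Ms4a1, Cd79a and Cxcr5 are filled in DSS alone among the models. How many of all genes are called in as many models was not counted.

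Across the 6 models Cxcl13 and Ltb were each called in 5, Lta in 2 (DSS and TCT), Cd79b in 2 (DSS and TCT), Ms4a1, Cd79a and Cxcr5 in DSS, Ccl19 in TCT and Cr2 in none. The DSS, DNBS and IL10 comparisons share WT_ctrl and TCT and aCD40 share Rag1_ctrl, so these calls are not independent. In single models 3.95% (DNBS) to 27.2% (IL10) of all genes were higher. How many of all genes were called in as many models was not counted, so these tallies do not set the members apart from other genes. An edgeR test of whether the 6 changes are equal passed for all 9 members, against 60.5% of all genes, with adjusted p from 3.97e-05 (Lta) to 0.0421 (Cd79a). Among DSS, DNBS and IL10 the changes differed for 8 of 9 members, Ccl19 being the exception, against 56.8% of all genes (edgeR adjusted p from 4.32e-05 for Cxcl13 to 0.0094 for Cd79a). The IL10 change minus the TRUC change passed for none of the 9 (edgeR adjusted p of at least 0.234, unadjusted p at least 0.0579), against 4.28% of all genes above 0 and 2.7% below. For Ltb that difference was 0.04 ± 0.54 and for Cxcl13 0.07 ± 0.54 on the log2 scale, so a difference of about the size of the SE could not be resolved.

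The order of levels over the 9 groups shows the same division. Mean Cd79a fell from DSS (75.8 CPM) through IL10 (50.8), WT_ctrl (30.1) and DNBS (20.2), where each neighbouring pair overlapped, to at most 0.265 CPM in the Rag-deficient groups. Mean Ltb was 28.8 CPM in IL10, 28.2 in TCT and 26.4 in DSS, overlapping one another and all above TRUC at 10.9 CPM. TRUC overlapped WT_ctrl (10.2), which in turn overlapped aCD40 (9.59), so the inflamed colon without B cells reached the Ltb level of the untreated colon with them. TRUC and WT_ctrl are both Balb/C, whereas aCD40 is labelled C57BL/6. Mean Cxcl13 was 58.4 CPM in DSS and 51 in TCT, overlapping, and lowest in Rag2_ctrl at 6.15 CPM.

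Among the 5 genes whose group means followed Cd79a most closely were Pax5, Blk, Ighv1-15 and Fcmr (Pearson r of log2 CPM 0.989 to 0.997 over 9 group means, 15906 genes searched). Those most like Cxcl13 were Msc, Dram1, Clcn7, Vcam1 and Csf2rb2 (0.943 to 0.978). Those most like Ltb were Klrb1b, Myo1g, Gpr65, Gimap7 and B4galnt1 (0.967 to 0.992). The means share libraries and controls, and these values are descriptions.

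Of 14 genes of the lymphotoxin and NF-kB2 pathway 11 were higher and 1 lower in TCT, where 16.1% of all genes were higher. The counts were 10 and 1 in DSS (17.7% of all genes higher), 9 and 1 in IL10 (27.2%), 8 and 1 in TRUC (22.4%), 6 and 0 in aCD40 (10.9%) and 2 and 0 in DNBS (3.95%). Without DSS 8 they were 6 and 1 in DSS, against 10.4% of all genes higher. The genes that fell, named after their values were seen, were Tnfrsf11a, the receptor RANK, in TCT (-0.78 ± 0.19), DSS (-0.73 ± 0.19) and IL10 (-0.70 ± 0.18), and the NF-kB subunit Relb in TRUC (-0.80 ± 0.15). Tnf, the related cytokine, had the largest change in all 5 models other than DNBS, from 3.52 ± 0.87 in aCD40 to 5.89 ± 0.89 in DSS on the log2 scale. In DSS 5, 6 and 8 it was at 21.9, 15.9 and 187 CPM, and without DSS 8 its log2 fold change was 3.91. Tnfsf14, a further ligand of Ltbr, rose by 3.32 ± 0.64 in TCT, 3.30 ± 0.65 in DSS, 2.50 ± 0.65 in TRUC and 2.33 ± 0.64 in IL10. In DSS 5, 6 and 8 it was at 1.89, 2.94 and 10.4 CPM, and without DSS 8 its log2 fold change was 2.24. Ltbr itself, named after its values were seen, rose in all 6 models, by 0.40 ± 0.13 in TCT to 1.20 ± 0.12 in IL10 on the log2 scale. Madcam1, the adhesion molecule that admits lymphocytes to gut tissue, and Vcam1 were called higher in the 5 models in which Cxcl13 and Ltb were. These 2 of the 14 homing and stroma genes were named after their values were seen. Of the 14, 10 were higher in DSS, 5 in IL10, 5 in TCT, 4 in TRUC, 3 in aCD40 and 1 in DNBS. In IL10 2 were lower and in TRUC 1. In DNBS the log2 fold changes were 0.48 ± 0.35 for Madcam1 and 0.34 ± 0.24 for Vcam1.

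Follicle-associated epithelium gave a mixed picture. Of 5 genes of M cells and of the epithelium over follicles, 3 were higher in DSS, in IL10 and in TCT (17.7%, 27.2% and 16.1% of all genes). In TRUC 2 were higher, in DNBS 1 and in aCD40 0 (22.4%, 3.95% and 10.9% of all genes). Tnfaip2 and Marcksl1 rose in DSS, IL10, TRUC and TCT, and Marcksl1 in DNBS. Gp2, a surface receptor of mature M cells, was lower in TCT (log2 fold change -2.73 ± 0.97), and Sox8, a transcription factor of M cells, was lower in TRUC (-2.29 ± 0.62). Without DSS 8 the DSS count was 3 higher and 1 lower, Gp2 (log2 fold change -3.17, edgeR adjusted p = 0.0237). Tnfaip2 and Marcksl1 are also expressed outside M cells.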

How the data were processed

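RNA-seq libraries from poly(A)-selected colon RNA of 29 mice were sequenced by the authors as paired ends. The submitters' processing notes name Trimmomatic, HISAT2, HTSeq and build GRCm38, and versions and the strand setting are not given in the sources used here. The authors deposited raw counts per Ensembl gene for 54532 genes, with no normalisation. Their 92 spike-in rows totalled 0 counts.

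From these counts, genes with a mean of at least 3 were kept (18616) and tested with edgeR 4.0.16 (R 4.3.3) by quasi-likelihood F tests with TMM scaling. All 9 groups entered the fit and p-values were Benjamini-Hochberg adjusted over all genes tested, with a threshold of 0.05. The script was tested on simulated data. CPM use TMM-scaled totals. Ratios of 2 genes were compared with exact permutation tests in scipy. Totals of 10725564 to 14977094 counts limit genes near 3 counts, and counting error alone does not cover the spread between mice. Groups come from the labels, which call each library a separate mouse only by number. The edgeR p-values set differences between groups against the spread between these samples, estimated over all 9 groups in the reported fit. No 2 libraries of a group agreed within sampling noise (33 pairs, lowest chi-square per degree of freedom 3.65).

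The 9 genes and the gene lists were chosen with earlier results of these data known. All 9 members are covered in each comparison, in full where a result turns on them and otherwise by counts or ranges. Of other lists, counts are given and at most the 3 largest changes past the threshold are named, with exceptions stated. Some genes of these lists are not reported here. One marker symbol of the small intestine list matched no gene, and that list (2 of 3 matched genes tested) gave 2 higher in IL10, 1 in TCT and 0 in the other models. Colon epithelium markers gave 6 higher and 1 lower of 8 in IL10 and at most 2 in either direction elsewhere. Alternatives covered scaling, the filter, DESeq2 1.42.0, fits on 2 groups, each mouse left out, other control groups and a replicate block. The ratio of Cr2 to Ms4a1 or Cd79a, and the gene lists without DSS 8 or IL10 4, were chosen after the data were seen. Promoter sequence is from RefSeq (GRCm38.p6). Pairing by replicate number was checked on the correlation of deviations from group means.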

Additional observations from a re-analysis of the deposited data

Results flagged for a closer look

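Changes of the members differed between the 6 models for every member in an edgeR test of equal changes, with adjusted p of 3.97e-05 for Lta, 7.99e-05 for Cxcl13, 0.000148 for Ltb, 0.00527 for Cd79b, 0.0111 for Cxcr5, 0.0182 for Ccl19, 0.0207 for Cr2, 0.0366 for Ms4a1 and 0.0421 for Cd79a. Between the DSS, DNBS and IL10 models alone, which share their control mice, the adjusted p was 4.32e-05 for Cxcl13, 0.001 for Lta, 0.0011 for Ltb, 0.00355 for Cr2, 0.00542 for Cxcr5, 0.00783 for Ms4a1, 0.00851 for Cd79b and 0.0094 for Cd79a. A pass was common, since 60.5% of all genes passed over the 6 models and 56.8% over DSS, DNBS and IL10. DSS 8 and DNBS 14 bear on the count of members over the 6 models most: without DSS 8 it was 5 of 9, and without DNBS 14 it was 7 of 9.

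In the groups of 4 mice a single value far from the others was found in 2 of 18 sets of values, where chance gives about 1 in 20. Ltb was 42.9 CPM in IL10 3 against 23.5 to 24.8 CPM in the other IL10 mice. Ccl19 was 0.221 CPM in TRUC 2, which is 3 counts, against 0 in the other TRUC mice.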

How the results depend on the processing

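When single mice were left out, the number of members called higher was 2 to 8 in DSS, 1 to 6 in IL10, 1 to 3 in TRUC, 5 in TCT, 1 in aCD40, 0 in DNBS and 5 to 6 in WT_ctrl against Rag2_ctrl, and 0 to 1 were lower in IL10. The test over the 6 models then passed for 5 to 9 members, that over DSS, DNBS and IL10 for 6 to 8 and the difference between IL10 and TRUC for 0. A threshold of 0.01 left 3 members higher in DSS, 1 in IL10, 1 in TRUC, 1 in aCD40 and 4 over the 6 models. Fits on the 2 groups alone called 4 in TRUC, 1 in IL10 and 5 in DSS (Cr2 gained, Cd79a, Cd79b and Ltb lost), and upper quartile scaling called 1 in aCD40. Against WT_ctrl, TCT had 3 members higher and 5 lower, which turned Ms4a1 (-3.69), Cd79b (-3.14), Cr2 (-6.12) and Cxcr5 (-3.17) on the log2 scale, and the groups compared are then of different genotype and labelled strain. The cause was not tested in the other cases.

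Same-numbered mice did not deviate together (correlations of -0.058 to 0.034). With a replicate block on the mice with shared numbers, 1 member was called higher in IL10, as in the same mice unblocked (1), and 3 in TRUC. Cxcl13 in IL10 then had a log2 fold change of 0.56 (edgeR adjusted p = 0.352), and in the same mice unblocked 0.71 (adjusted p = 0.207). Upper quartile scaling moved the median log2 fold change of all genes from -0.01 to -0.18 in IL10 and from -0.03 to -0.14 in TRUC. It gave 3854 genes higher and 6187 lower in IL10, against 5058 and 4858, and 542 and 520 in DNBS, against 736 and 412. Over the other settings on all mice, counts of all genes higher ranged from 355 to 1129 in DNBS and from 901 to 2087 in WT_ctrl against Rag2_ctrl (905 in the reported fit), and counts lower from 157 to 771 and from 498 to 1625 (605 in the reported fit). With single mice left out they ranged from 156 to 1365 higher in DNBS, from 928 to 2233 in aCD40 and from 1940 to 3242 in DSS. The ranges higher were 4194 to 4868 in IL10, 3373 to 3950 in TRUC, 2333 to 3040 in TCT and 580 to 694 in WT_ctrl against Rag2_ctrl. The members' calls near 3 counts per library (Lta, Cxcr5 and Ccl19 in the Rag-deficient groups) are limited by depth.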

Other observations

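Fcer2a, the low-affinity IgE receptor CD23 of mature follicular B cells, was singled out after the values were seen because it lay close to Cr2 in the IL10 group. It was at 4.47, 3.64, 12.8 and 1.46 CPM in IL10 1 to 4 against 9.52, 11 and 16.2 CPM in WT_ctrl, with overlap in IL10 3 (log2 fold change -1.12 ± 0.47, edgeR adjusted p = 0.0516). In DSS it was at 19.9, 12.2 and 25.3 CPM (0.64 ± 0.50, edgeR adjusted p = 0.334). Of the 16 other B-cell genes, to which Fcer2a belongs, 3 were called higher and 0 lower in IL10. Their median log2 fold change there was 0.49. Cd209a, a dendritic cell lectin, was lower in IL10 (log2 fold change -3.04 ± 0.43), TCT (-2.73 ± 0.58) and aCD40 (-3.49 ± 0.63). Of the 6 dendritic and myeloid markers, 3 were higher and 1 lower in IL10, 4 and 1 in TCT and 1 and 1 in aCD40.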
